A study of Mus musculus with 8 samples.

Results

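The small nucleolar and small Cajal body RNAs were followed in 8 expression arrays of mouse medulloblastoma, a tumour of the cerebellum. Members were the genes whose symbols start with Snora, Snord or Scarna, that had a probe set naming no other gene, and whose mean over the 8 arrays lay above 4.38 on the log2 scale, the 30th percentile of all named genes. Where several probe sets named a gene, the one with the highest mean was taken. Of 78 such genes measured, 67 passed this level and 11 did not, and the 67 are members among 15526 genes tested. They comprise 24 genes of the box H/ACA class (Snora), 38 of the box C/D class (Snord) and 5 small Cajal body RNAs (Scarna). The members were thus selected on their mean level over all 8 arrays, and not on the difference between the groups. Snora15 and Snord123 had Bcl2l1-deleted means below this level, at 4.22 and 4.33, and passed through their controls. Just above the threshold lay Snord123 (4.42), Snord85 (4.89) and Snord73a (5.02), and just below it Snord90 (4.37), Snora41 (4.35) and Snord111 (4.11).

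Both groups had Math1-Cre and SmoM2: the Math1 promoter drives Cre in granule neuron precursors, where it turns on an active form of Smoothened. The 4 Bcl2l1-deleted tumours came from mice that were also Bcl2l1 f/f, in which the same Cre removes Bcl2l1, which encodes BCL-xL, a protein that guards against apoptosis. The 4 control tumours came from Math1-Cre/SmoM2 mice with wild-type Bcl2l1. Tumours were taken at postnatal day 15 from mice that received no agent, and each array stands for a different animal. Groups were taken from the titles and genotypes, because a further status label reads as deleted on all 8 arrays. Cells that never used the Math1 promoter keep Bcl2l1 in both groups. The values are log2 RMA expression values, and a change is the Bcl2l1-deleted mean minus the control mean on that scale. In bulk tissue, fewer cells of a type and less RNA per cell cannot be told apart.

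Small nucleolar RNAs are short noncoding RNAs that guide the chemical modification of other RNAs, mostly of ribosomal RNA. Box H/ACA RNAs bind dyskerin, which turns uridines into pseudouridines, and box C/D RNAs bind fibrillarin, which methylates the ribose. Small Cajal body RNAs guide the same reactions on the RNAs of the spliceosome. Most of these RNAs are cut out of the introns of a host gene, and a few take part in cleavage of the ribosomal RNA precursor instead of modifying it.

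The arrays differed as a whole. Control replicate 2 correlated with the other arrays at 0.920 to 0.948, and its interquartile range over the named genes was 2.40, against 3.29 to 3.66 on the others. The 1394 olfactory and vomeronasal receptor genes, taken as a measure of background, had medians of 2.79 to 2.92 on the Bcl2l1-deleted arrays and 2.94 to 3.60 on the controls. Xist, used below as a covariate, stood at 10.08, 9.63, 4.91 and 4.70 on Bcl2l1-deleted replicates 1 to 4. On control replicates 1 to 4 it stood at 10.54, 9.89, 4.53 and 10.33, so that its high and low arrays were unevenly spread over the groups. Over all genes tested, the median change was 0.17. Bcl2l1 itself fell by 1.36 (limma adjusted p = 0.00509). All 15 markers of granule neuron precursors and their tumours, among them Atoh1 and Gli1, passed the level filter, and 0 of them differed between the groups (limma, 1 of 15 at an unadjusted p under 0.05). Of all genes tested, 6.52% differed at an adjusted p under 0.05.

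Where members differed between the groups, they were lower in the Bcl2l1-deleted tumours. Of 67 members, 14 fell and 0 rose (limma, Benjamini-Hochberg adjusted p under 0.05 over all genes tested), while 1.60% of all genes tested fell and 4.93% rose. At an unadjusted p under 0.05 (limma), 28 members were lower and 3 higher, where 7.32% of all genes tested were lower and 23.1% higher. The median change of the members was -0.42, beside 0.17 for all genes tested, and 52 of 67 changes were negative. The 14 were between 1.80-fold and 6.15-fold lower, and 13 of them had groups that did not overlap. In all, 21 of 67 members had groups without overlap, each lower in the Bcl2l1-deleted tumours, where 4.46% of all genes tested were lower without overlap and 23.4% were separate in either direction.

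The number of members that passed depended on single arrays. When Bcl2l1-deleted arrays 1 to 4 were left out one at a time it was 1, 2, 9 and 4, and for control arrays 1 to 4 it was 18, 19, 6 and 8. The 14 kept a negative change each time. The share of all genes tested that fell moved too. It was 0.0258%, 0.0644%, 1.27% and 0.245% without Bcl2l1-deleted arrays 1 to 4 in turn. Without control arrays 1 to 4 it was 2.49%, 4.57%, 0.670% and 0.251%. Centring each array on its tested genes gave 17 members lower, beside 4.50% of all genes tested. When the receptor median entered as a covariate 10 members fell, beside 2.60% of all genes tested, and 6 of those members were among the 14.

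**Figure D1:**
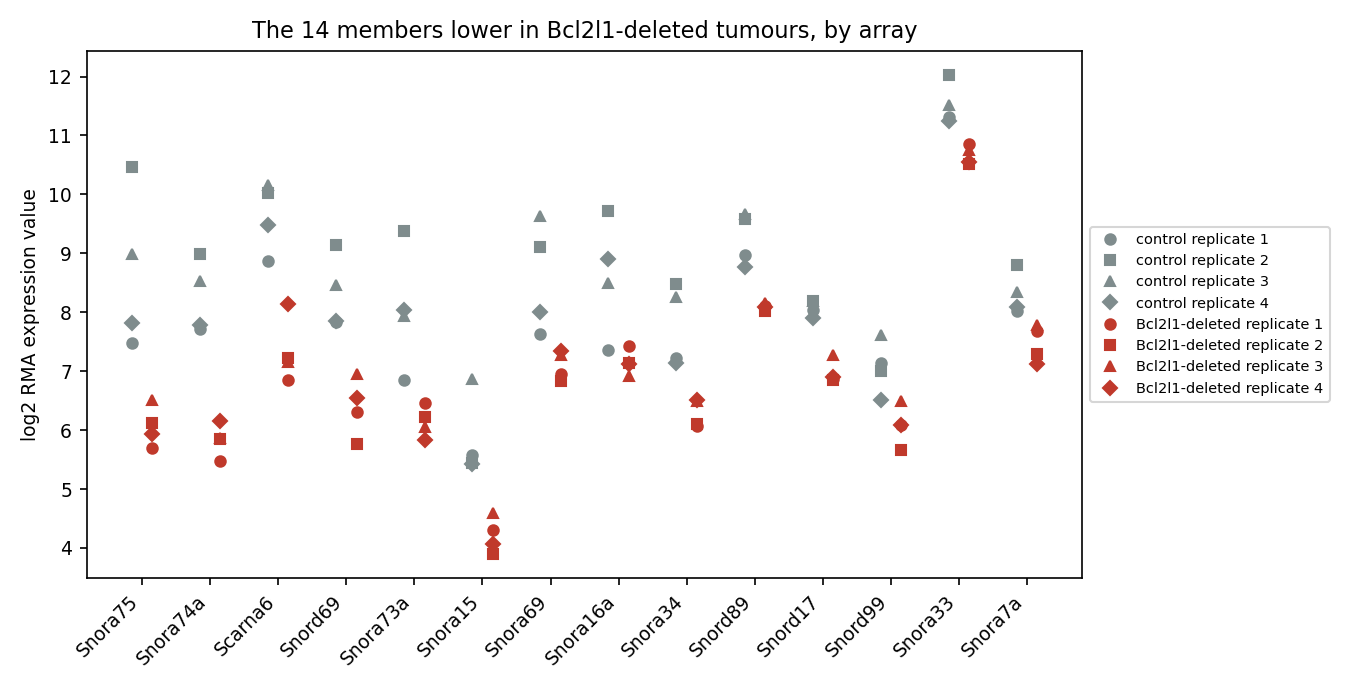
Log2 RMA expression value (vertical axis) of the 14 members that fell (horizontal axis, ordered by size of change) on each of the 8 arrays. Grey points are controls and red points Bcl2l1-deleted tumours, with a marker shape for each replicate number; the groups overlap for Snora16a and for no other of the 14.

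The box H/ACA class held 9 of the 14. Of its 24 members 9 fell, 0 rose and 15 did not pass (limma, with 12 lower and 0 higher at an unadjusted p under 0.05). Of all genes tested, 1.60% fell and 4.93% rose, and 7.32% were lower and 23.1% higher at the unadjusted threshold. The median change of the class was -0.72, and 22 of 24 changes were negative. Leaving out single Bcl2l1-deleted arrays, 1 to 4, gave 1, 1, 4 and 1, and leaving out single controls gave 11, 10, 2 and 4. In these fits between 0.0258% and 4.57% of all genes tested fell. The count was 4 with the receptor covariate and 5 with the Xist level as covariate, where 2.60% and 0.33% of all genes tested fell.

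Snora74a, which lies within the noncoding gene Snhg4, had the smallest p of all members. Its values were 5.47, 5.85, 5.86 and 6.16 on Bcl2l1-deleted replicates 1 to 4 and 7.72, 8.99, 8.53 and 7.79 on control replicates 1 to 4. Every control array stood above every Bcl2l1-deleted array. It fell by 2.42 (SE 0.28, 5.37-fold lower, limma adjusted p = 0.00509), and it passed in all 21 alternative settings (adjusted p between 0.000377 and 0.0346).

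Snora75 had the largest change of the members. It stood at 5.69, 6.12, 6.51 and 5.94 on the Bcl2l1-deleted arrays and at 7.48, 10.46, 8.99 and 7.82 on the controls. The groups did not overlap, and the controls were far apart, with control replicate 2 on top. It fell by 2.62 (SE 0.53, 6.15-fold lower, limma adjusted p = 0.0245). Without control replicate 2 the change was -2.03 (adjusted p = 0.00995), and with the receptor covariate it was -1.59 and did not pass (adjusted p = 0.0710). It did not pass in 6 of 21 alternative settings.

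Snora73a, also called U17, is one of the RNAs that serve cleavage of the ribosomal RNA precursor. It had 6.46, 6.23, 6.05 and 5.83 on the Bcl2l1-deleted arrays and 6.85, 9.38, 7.93 and 8.04 on the controls. Control replicate 1 lay nearest to the Bcl2l1-deleted arrays and control replicate 2 farthest, with no overlap. It fell by 1.91 (SE 0.42, 3.76-fold lower, limma adjusted p = 0.0308), and without control replicate 2 the change was -1.47 (adjusted p = 0.0143). With the receptor covariate it was -1.01 (adjusted p = 0.0669), and it did not pass in 8 of 21 alternative settings.

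Snora73b, a closely similar copy of U17, had 7.16, 6.17, 6.58 and 6.59 on the Bcl2l1-deleted arrays and 6.47, 9.31, 8.05 and 6.40 on the controls. Here 2 controls lay among the Bcl2l1-deleted arrays, and the change of -0.94 did not pass (SE 0.55, limma adjusted p = 0.265). How far each probe set reads its own copy is uncertain.

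Snora15 stood at 4.31, 3.90, 4.59 and 4.06 on the Bcl2l1-deleted arrays and at 5.57, 5.45, 6.87 and 5.43 on the controls. The groups were separate, with control replicate 3 apart from the other controls. It fell by 1.61 (SE 0.31, 3.06-fold lower, limma adjusted p = 0.0216), and it did not pass in 3 of 20 alternative settings. Its Bcl2l1-deleted mean of 4.22 lies below the level threshold of 4.38, and its control mean of 5.83 above it. It passed that filter only through the controls, so its call is not independent of the filter.

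Snora34 stood at 6.07, 6.10, 6.50 and 6.52 on the Bcl2l1-deleted arrays and at 7.23, 8.48, 8.26 and 7.13 on the controls. Control replicates 1 and 4 were the lower controls and still lay above every Bcl2l1-deleted array. It fell by 1.48 (SE 0.30, 2.78-fold lower, limma adjusted p = 0.0247), and it did not pass in 5 of 21 alternative settings.

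Snora33, within the ribosomal protein gene Rps12, had 10.86, 10.51, 10.76 and 10.55 on the Bcl2l1-deleted arrays and 11.31, 12.03, 11.51 and 11.25 on the controls. The groups were separate at a high level. It fell by 0.86 (SE 0.19, 1.81-fold lower, limma adjusted p = 0.0333). A dimmer probe set of the gene, at a mean of 4.08, differed by -0.38, and with the mean of both the gene did not pass (adjusted p = 0.0873). In all, it did not pass in 10 of 21 alternative settings.

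Snora69, within the ribosomal protein gene Rpl39, had 6.95, 6.83, 7.27 and 7.34 on the Bcl2l1-deleted arrays and 7.63, 9.10, 9.63 and 8.0031 on the controls. Control replicates 2 and 3 were high, and control replicate 1 lay close to the Bcl2l1-deleted arrays. It fell by 1.49 (SE 0.38, 2.81-fold lower, limma adjusted p = 0.0449). Without control replicate 2 it did not pass (adjusted p = 0.0568), nor in 8 other alternative settings.

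Snora7a and Snora16a completed the 9 and are named after their values were seen. Snora7a had 7.68, 7.29, 7.79 and 7.12 on the Bcl2l1-deleted arrays and 8.03, 8.80, 8.35 and 8.09 on the controls, without overlap. It fell by 0.85 (SE 0.22, limma adjusted p = 0.0457). Snora16a had 7.42, 7.14, 6.91 and 7.11 against 7.36, 9.72, 8.50 and 8.91, and control replicate 1 lay within the Bcl2l1-deleted range. It fell by 1.48 (SE 0.39, adjusted p = 0.04995). Snora7a did not pass in 11 of 21 alternative settings and Snora16a in 14.

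The H/ACA members that did not pass show how far the class varied. Snora21 differed by -0.82 (limma adjusted p = 0.0624) and Snora44 by -0.36 (adjusted p = 0.414). Snora23 lay at 8.23, 7.59, 9.29 and 7.85 on the Bcl2l1-deleted arrays and 8.77, 7.65, 9.23 and 8.75 on the controls, and the groups were mixed (-0.36, adjusted p = 0.541). Snora78, within the noncoding gene Snhg9, and Snora2b were the 2 members of the class with a positive change. They differed by 0.34 and 0.25 (adjusted p = 0.269 and 0.506).

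The box C/D class held 4 of the 14. Of its 38 members 4 fell, 0 rose and 34 did not pass (limma, with 14 lower and 3 higher at an unadjusted p under 0.05). Of all genes tested, 1.60% fell and 4.93% rose, and 7.32% were lower and 23.1% higher at the unadjusted threshold. The median change of the class was -0.38, and 27 of 38 changes were negative. Leaving out single Bcl2l1-deleted arrays, 1 to 4, gave 0, 0, 4 and 2, and leaving out single controls gave 5, 7, 3 and 3. In these fits between 0.0258% and 4.57% of all genes tested fell.

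Snord17, within the sorting nexin gene Snx5, had the smallest p of the class. It had 6.87, 6.86, 7.27 and 6.90 on the Bcl2l1-deleted arrays and 8.03, 8.19, 8.18 and 7.91 on the controls. The controls lay close together, control replicate 2 included, and far from the Bcl2l1-deleted arrays. It fell by 1.10 (SE 0.15, 2.15-fold lower, limma adjusted p = 0.0114). Without Bcl2l1-deleted replicate 1 or 2 it did not pass (adjusted p = 0.0635 and 0.05004).

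Snord69, within the nucleolar protein gene Gnl3, had the largest change of the class. It stood at 6.31, 5.76, 6.96 and 6.54 on the Bcl2l1-deleted arrays and at 7.83, 9.14, 8.46 and 7.86 on the controls. The groups were separate. It fell by 1.93 (SE 0.32, 3.80-fold lower, limma adjusted p = 0.0140), while Gnl3 differed by 0.41 (adjusted p = 0.111).

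Snord89 had 8.11, 8.02, 8.16 and 8.09 on the Bcl2l1-deleted arrays and 8.97, 9.59, 9.68 and 8.78 on the controls. The Bcl2l1-deleted arrays were nearly level, below every control. It fell by 1.16 (SE 0.21, 2.23-fold lower, limma adjusted p = 0.0182), and it did not pass in 3 of 21 alternative settings.

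Snord99 had 6.09, 5.67, 6.49 and 6.09 on the Bcl2l1-deleted arrays and 7.14, 7.01, 7.61 and 6.52 on the controls. Control replicate 4 lay just above Bcl2l1-deleted replicate 3. It fell by 0.99 (SE 0.24, 1.98-fold lower, limma adjusted p = 0.0413), and it did not pass in 8 of 21 alternative settings.

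Several C/D members had positive changes that did not pass. Snord61 had 5.87, 5.42, 6.10 and 5.24 on the Bcl2l1-deleted arrays and 5.54, 3.33, 5.06 and 4.13 on the controls (1.14, SE 0.41, limma adjusted p = 0.101). Snord16a had 8.56, 8.13, 8.79 and 8.50 against 8.59, 6.75, 7.65 and 7.06 (0.98, SE 0.34, adjusted p = 0.0932). In both, control replicate 1 lay among the Bcl2l1-deleted arrays and control replicate 2 was lowest.

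Snord65 had 8.27, 7.75, 8.57 and 8.10 on the Bcl2l1-deleted arrays and 8.26, 7.14, 7.59 and 7.32 on the controls (0.59, SE 0.26, limma adjusted p = 0.149). Without control replicate 1, Snord16a, Snord61 and Snord65 were higher and passed (adjusted p = 0.0151, 0.0341 and 0.0394). No other member was called higher in any of the 21 alternative settings. Snord52 and Snord37 differed by 0.72 and 0.48 (adjusted p = 0.200 and 0.481).

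Among the brightest C/D members, Snord104 and Snord49b differed by -0.42 and -0.39 (limma adjusted p = 0.136 and 0.205). Snord118, known as U8 and needed for ribosomal RNA processing, had its highest value of 7.78 on control replicate 2, and its change of -1.28 did not pass (adjusted p = 0.0758). Snord13, known as U13, stood at 9.57 on control replicate 2 while the other controls lay between 5.59 and 6.41. Its change was -0.37 with an SE of 0.69 (adjusted p = 0.730).

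Of the 5 small Cajal body RNAs, Scarna6 fell and the other 4 did not pass. Scarna6 lies within the autophagy gene Atg16l1. It had 6.84, 7.22, 7.16 and 8.14 on the Bcl2l1-deleted arrays and 8.87, 10.02, 10.16 and 9.49 on the controls, with no overlap. It fell by 2.30 (SE 0.33, 4.91-fold lower, limma adjusted p = 0.0120), and without Bcl2l1-deleted replicate 1 it did not pass (-2.13, adjusted p = 0.0612).

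Scarna8 lay at 5.54, 4.97, 5.60 and 5.24 on the Bcl2l1-deleted arrays and at 6.01, 5.88, 6.97 and 6.16 on the controls. Its groups did not overlap, but its change of -0.92 just missed the threshold (SE 0.25, limma adjusted p = 0.0509), and it passed in 9 of 21 alternative settings. Scarna10, Scarna2 and Scarna17 differed by -0.34, 0.09 and 0.16 (adjusted p = 0.244, 0.771 and 0.617). The changes of Scarna2 and Scarna17 were negative, at -0.17 and -0.10, when each array was centred on its tested genes.

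The H/ACA and C/D classes were then set beside each other on every array. Levels of different probe sets cannot be compared, so each member was expressed as its deviation from its own mean over the 8 arrays. The median H/ACA deviation was -0.25, -0.59, -0.15 and -0.50 on Bcl2l1-deleted replicates 1 to 4 and 0.15, 0.58, 0.52 and 0.22 on control replicates 1 to 4. The groups were separate for the H/ACA class. The median C/D deviation was -0.07, -0.34, 0.06 and -0.25 on the Bcl2l1-deleted arrays and 0.30, 0.20, 0.13 and -0.02 on the controls. These groups overlapped, through Bcl2l1-deleted replicate 3 and control replicate 4.

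The H/ACA median deviation minus the C/D median deviation lay between -0.25 and -0.18 on the 4 Bcl2l1-deleted arrays. It was -0.15, 0.38, 0.39 and 0.24 on control replicates 1 to 4. A shift common to a whole array cancels in this difference. Control replicate 1 lay next to the Bcl2l1-deleted arrays, and the other 3 controls stood well above. Over the fitted changes, the H/ACA median minus the C/D median was -0.34, and it lay between -0.56 and -0.24 in the alternative settings. No test was made of it, since it is a score over chosen members.

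**Figure D2:**
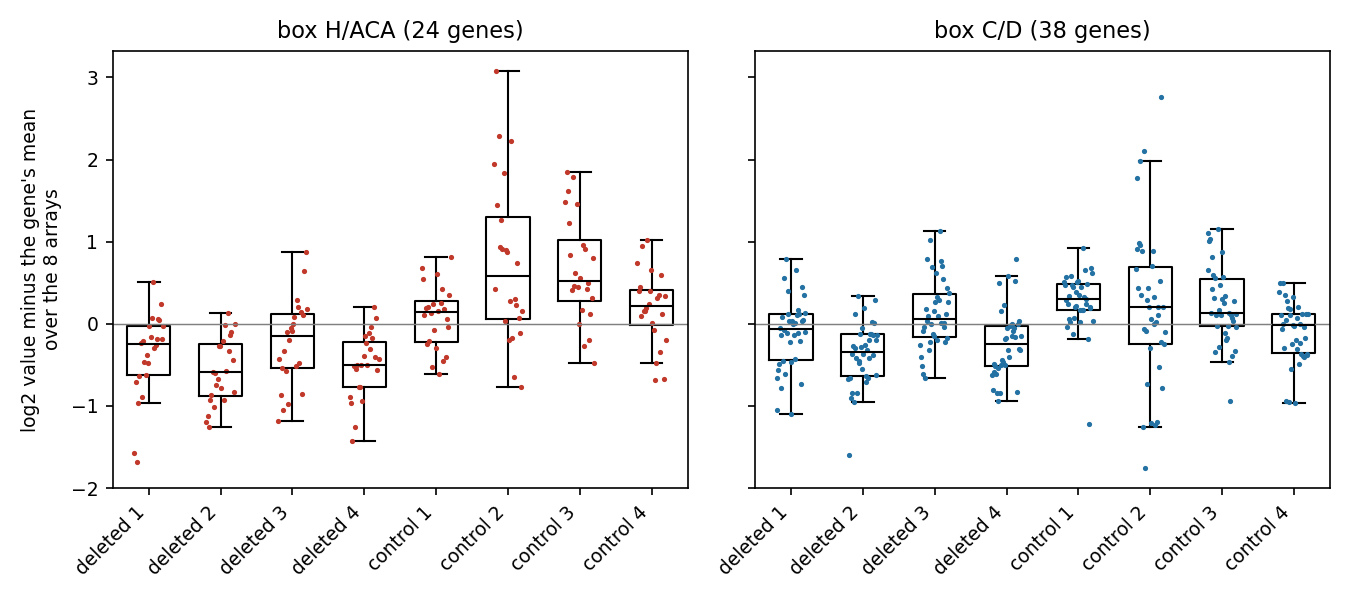
Deviation of each box H/ACA member (left) and box C/D member (right) from its own mean over the 8 arrays, on the log2 scale (vertical axis), by array (horizontal axis). Points are genes, boxes span the quartiles with the median as a line, and whiskers reach the farthest point within 1.5 interquartile ranges of the box; the H/ACA medians are below 0 on the 4 Bcl2l1-deleted arrays and above 0 on the 4 controls.

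Against background, the H/ACA median lay 3.34 to 3.74 above the receptor median on the Bcl2l1-deleted arrays and 3.91 to 4.99 above it on the controls. For the C/D class the same distance was 3.68 to 4.08 and 3.28 to 4.29. The H/ACA distances did not overlap between the groups, and the C/D distances did. Set against the median of all genes tested on the same array, the H/ACA median stood at -0.73 to -0.38 on the Bcl2l1-deleted arrays and at 0.23 to 1.26 on the controls. The C/D median stood at -0.28 to -0.04 and at 0.17 to 0.63, so that by this measure both classes were separate. The median of all genes tested was itself separate, at 6.86 to 6.92 on the Bcl2l1-deleted arrays and 6.26 to 6.81 on the controls. Its difference adds to the separation of both classes by this measure.

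The members that fell were mostly the longer RNAs, by the lengths RefSeq lists (GRCm38.p6, all 67 members matched). H/ACA members had a median length of 120.5 nt and C/D members of 69.5 nt, so that length and class go together. Of 27 members over 100 nt, 11 fell and 25 had a negative change, with a median of -0.86. Of 40 members up to 100 nt, 3 fell and 27 had a negative change, with a median of -0.28. The split at 100 nt was chosen after the values were seen. Scarna2, Scarna17 and Scarna10 are listed with 61, 62 and 71 nt, and Snora20 and Snora61 with 61 and 62 nt. Whether the listed lengths are those of the full RNAs was not checked, and the split and the correlations below rest on them.

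Within the C/D class, the 4 members over 100 nt, Snord22, Snord118, Snord15a and Snord17, had a median change of -0.87, and the 34 shorter ones of -0.26. Within the H/ACA class, 21 members over 100 nt had a median of -0.85 and the 3 shorter ones of -0.50. Single members went against this order. Snord69 has 59 nt and fell by 1.93, while Snora78 has 157 nt and differed by 0.34.

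Across the 67 members, Pearson's r between length and change was -0.55 and Spearman's rho -0.51. They were -0.39 and -0.44 over the 38 C/D members, and -0.31 and -0.18 over the 24 H/ACA members. These values describe genes measured on the same 8 arrays, and genes are not replicates. RNA was isolated on RNeasy columns, per the labels' protocols, and the part of RNA recovery by length in these changes was not tested.

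**Figure D3:**
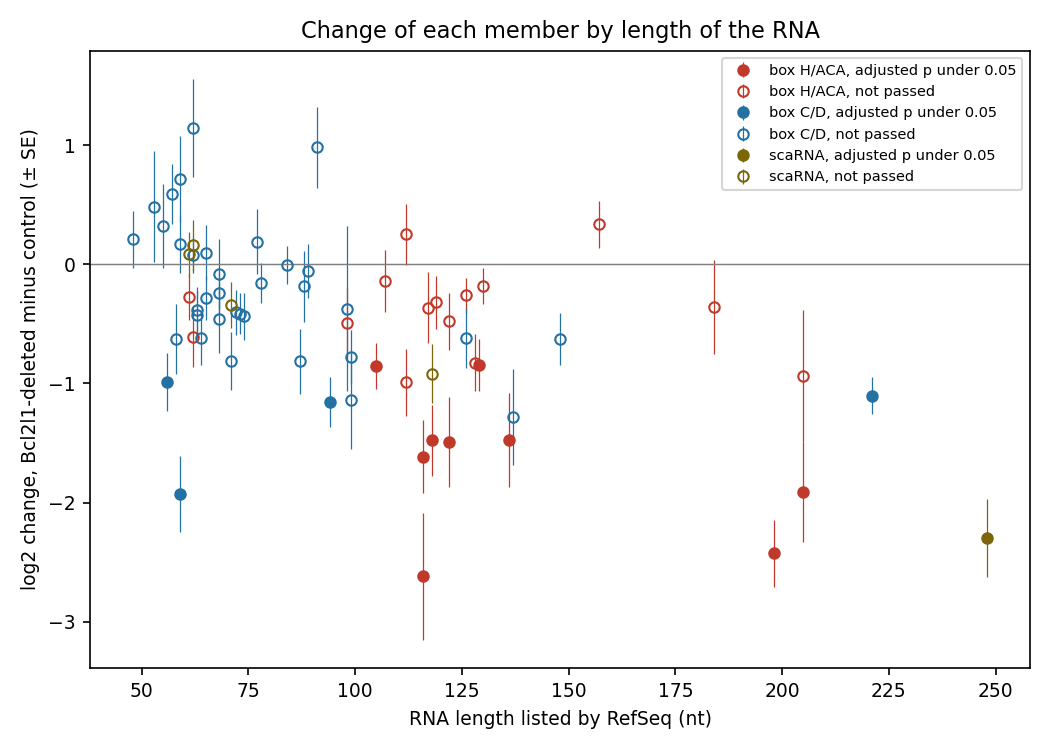
Log2 change of each of the 67 members, Bcl2l1-deleted minus control with its standard error (vertical axis), against the length of the RNA in nt as RefSeq lists it (horizontal axis). Colours mark the class and filled points fell at an adjusted p under 0.05; 11 of the 14 filled points lie above 100 nt, and the other 3 are Snord69, Snord89 and Snord99.

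Other small noncoding RNAs had negative medians as well. Of 168 miRNA genes tested, 17 fell and 1 rose, with a median change of -0.38. The share that fell was 10.1% of these, 20.9% of the members and 1.21% of 14162 protein-coding genes, whose median was 0.20. Rpph1, the RNA of ribonuclease P, fell by 1.55 (limma adjusted p = 0.0199), and the Y RNA gene Rny1 fell by 2.12 (adjusted p = 0.0247). Each did not pass in 5 of 21 alternative settings. They belong to a group of 19 genes, drawn from the RefSeq types Y, small cytoplasmic, ribonuclease P, ribonuclease MRP, telomerase and miscellaneous RNA. Of this group 4 fell, 1 rose and 7 had a positive change, and its per-array medians overlapped between the Bcl2l1-deleted and control arrays. Terc, the telomerase RNA, which carries an H/ACA domain, differed by -1.16 (adjusted p = 0.117), and the abundant Rn7sk by -0.17 (adjusted p = 0.443).

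The hosts of the members were then compared with them. RefSeq places 63 of the 67 members within the span of a longer gene, in a table that gives no strand, and 39 different hosts were tested for 50 members. Of these hosts 1 rose and 0 fell (limma, with 11 higher and 1 lower at an unadjusted p under 0.05), with a median change of 0.22 beside 0.17 for all genes tested. Among all genes tested, 4.93% rose and 23.1% were higher at the unadjusted threshold. Each host was read by its probe set with the highest mean. Whether that probe set lies at the locus that holds the member was not checked. The probe set of Rpl3 ran from 8.08 to 11.31 on the Bcl2l1-deleted arrays alone (SE of its change 0.78). Snhg6, a noncoding gene that holds Snord87, was the host that rose (0.53, SE 0.13, adjusted p = 0.0451), and it did not pass in 14 of 21 alternative settings.

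Of 21 H/ACA members with a tested host, 17 had a lower change than the host, and the median of member minus host was -0.97. Of 26 such C/D members it was 19, with a median of -0.37. Across the 50 members, Pearson's r between the change of the member and that of its host was -0.13 and Spearman's rho -0.22, over points that share the 8 arrays and in part a host. A list of known host genes gave 1 higher and 1 lower of 53 tested, with a median of 0.12. These were Snhg6 and the translation helicase gene Eif4a1, which fell by 1.08 (SE 0.22, limma adjusted p = 0.0267). With the mean of its 2 probe sets Eif4a1 differed by -0.44 (adjusted p = 0.124), and it did not pass in 7 of 21 alternative settings.

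**Figure D4:**
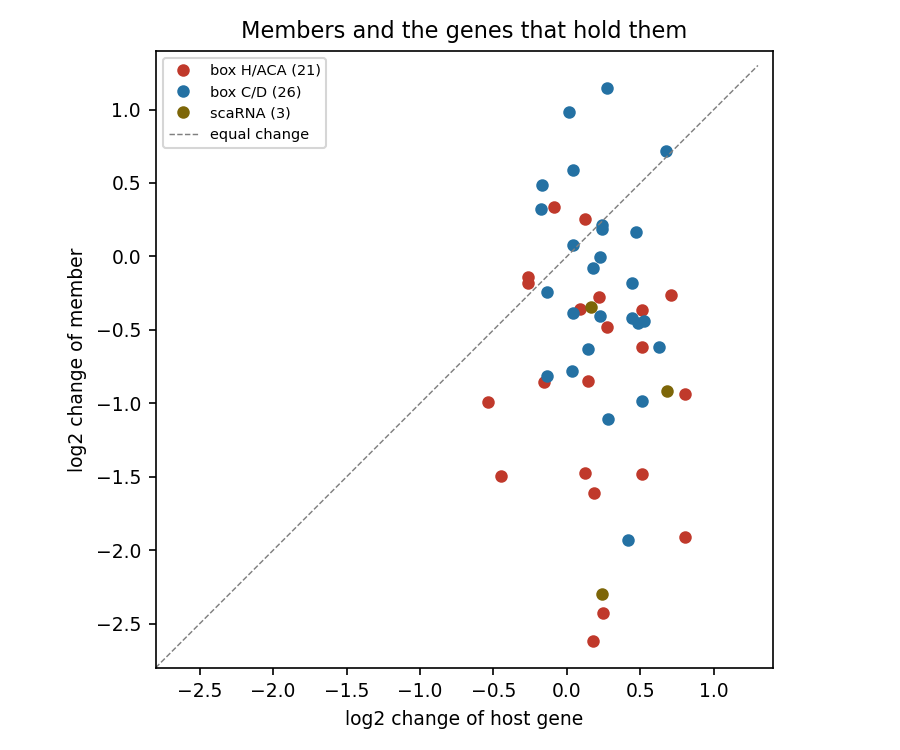
Log2 change of 50 members (vertical axis) against that of the gene whose span holds them (horizontal axis), both Bcl2l1-deleted minus control, coloured by class, with the dashed line marking equal change. Host changes lie between -0.54 and 0.80, while members reach from -2.62 to 1.14, and 39 of the 50 points lie below the line.

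Members of the same host differed among themselves. There were 8 hosts with several members, holding 19 members. In each host the member with the lowest change was set against the one with the highest. A difference between the groups is thus built into each pair, and its separation is no test. Among the 8 hosts, the groups were separate only for the pairs of Ncl and Kansl2. Ncl, the gene of the nucleolar protein nucleolin, holds the H/ACA RNA Snora75 and the C/D RNA Snord82. Snora75 minus Snord82 was -2.95, -1.55, -2.22 and -2.04 on the Bcl2l1-deleted arrays and -1.49, 1.97, 1.03 and -0.09 on the controls. The groups were separate, with control replicate 1 next to the Bcl2l1-deleted arrays. Snord82 alone differed by -0.08 (limma adjusted p = 0.873) and Ncl by 0.18 (adjusted p = 0.416), and each turned sign in some settings.

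Kansl2, whose protein belongs to a histone acetyltransferase complex, holds the H/ACA RNAs Snora34 and Snora2b, listed with 118 and 112 nt. Snora34 minus Snora2b was 0.79, 1.50, 0.82 and 1.41 on the Bcl2l1-deleted arrays and 2.22, 3.55, 2.91 and 2.76 on the controls. These groups were separate too, for a pair likewise picked by its changes. Kansl2 itself differed by 0.13 (limma adjusted p = 0.541), and by -0.01 after quantile normalization.

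The noncoding gene Snhg12 holds 4 members, Snora16a, Snord99, Snora61 and Snora44, with changes of -1.48, -0.99, -0.61 and -0.36, and itself differed by 0.51 (limma adjusted p = 0.104). Snora16a minus Snora44 lay between -1.03 and -0.17 on the Bcl2l1-deleted arrays and between -0.17 and 1.05 on the controls, so that the groups met at their edges. Snhg3, the host of Snora73a and Snora73b, differed by 0.80 (adjusted p = 0.109). The C/D pair Snord43 and Snord83b in the ribosomal protein gene Rpl3 had nearly equal changes, 0.21 and 0.19.

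The promoters of Ncl, Kansl2 and Snhg12 are shown, the hosts by span whose members lay farthest apart in change (2.54, 1.73 and 1.11). 2410006H16Rik and Snhg3 followed at 0.98 and 0.97 and are not shown. Each sequence runs from 120 bases before to 20 bases after the start that RefSeq lists (GRCm38.p6). Capitals mark a pyrimidine tract at the start, a feature for which host genes of small nucleolar RNAs are known. It was searched on the gene's strand as a C followed by at least 4 further C or T bases within 10 bases of the start.
Ncl: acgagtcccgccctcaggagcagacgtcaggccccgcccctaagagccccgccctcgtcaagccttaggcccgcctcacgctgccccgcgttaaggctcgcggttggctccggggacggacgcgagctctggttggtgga
Kansl2: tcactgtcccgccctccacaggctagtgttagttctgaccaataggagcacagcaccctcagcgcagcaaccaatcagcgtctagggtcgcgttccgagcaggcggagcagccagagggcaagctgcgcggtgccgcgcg
Snhg12: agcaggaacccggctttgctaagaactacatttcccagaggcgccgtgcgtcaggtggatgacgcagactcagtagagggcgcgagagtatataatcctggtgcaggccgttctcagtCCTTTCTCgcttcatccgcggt
They lie at chr1:86359436-86359575 (minus strand), chr15:98534250-98534389 (minus strand) and chr4:132308558-132308697 (plus strand). Snhg12 has a tract of 8 bases across its start, and the letters searched for are not within 10 bases of the listed starts of Ncl and Kansl2. The window of Snhg3 has a tract of 5 bases. Of 52 hosts, tested or not, 39 have a window in the table and 17 of these (43.6%) had a tract, beside 37.0% of 27025 genes with a window.

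Genes of the proteins that carry these RNAs were compared next. Of 6 genes of the H/ACA particle and its assembly, 1 rose and 0 fell (limma, with 4 higher and 0 lower at an unadjusted p under 0.05), and the median change was 0.56 beside 0.17 for all genes tested. Of all genes tested, 4.93% rose and 23.1% were higher at that unadjusted threshold. Gar1, a core protein of the particle, had 8.30, 8.28, 8.10 and 8.26 on the Bcl2l1-deleted arrays and 7.43, 6.36, 7.06 and 7.17 on the controls. The groups did not overlap, as for 19.0% of all genes tested in the same direction, and control replicate 2 was lowest for Gar1. It rose by 1.22 (SE 0.21, adjusted p = 0.0167), and without control replicate 2 the change was 1.01 (adjusted p = 0.00473). Leaving out Bcl2l1-deleted array 1 or 2 ended the call (adjusted p = 0.0735 and 0.0659). Dkc1, the gene of dyskerin, differed by 0.62 (adjusted p = 0.106), the core protein gene Nhp2 by 0.56 (adjusted p = 0.0631) and the assembly factor gene Shq1 by 0.56 (adjusted p = 0.0873).

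Of 7 tested genes of the C/D particle and its assembly, 0 passed (limma, with 4 higher and 0 lower at an unadjusted p under 0.05), with a median change of 0.35. Here too, 4.93% of all genes tested rose and 23.1% were higher at the unadjusted threshold. The core protein gene Nop56 differed by 0.47 (adjusted p = 0.0819). Of 8 shared assembly and transport factors, Ncbp2, the small subunit of the nuclear cap-binding complex, rose (0.62, adjusted p = 0.0486). Of 12 Cajal body genes, Gemin2 of the SMN complex rose (1.05, adjusted p = 0.0415). Ncbp2 did not pass in 15 of 21 alternative settings and Gemin2 in 11 of 20. Of 21 nucleolar genes and of 13 genes of RNA trimming and decay, 0 passed (limma, with 11 and 6 higher and 0 lower at an unadjusted p under 0.05, where 23.1% of all genes tested were higher).

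Markers of other cells moved with the groups. Of all genes tested, 4.93% rose and 1.60% fell (limma, adjusted p under 0.05). Without overlap between the groups, 19.0% were higher and 4.46% lower. The mean level of 10 markers of differentiated granule neurons was 5.72 to 7.38 on the Bcl2l1-deleted arrays and 7.65 to 8.70 on the controls, and 7 of the 10 fell. The mean of 8 oligodendrocyte markers was 6.03 to 7.55 and 7.20 to 8.56, ranges that overlap, with 2 lower and Cnp at a positive change of 0.64 (adjusted p = 0.142). That of 5 choroid plexus markers was 5.18 to 5.74 and 6.81 to 7.20, mostly through Ttr, the transthyretin gene, which fell by 5.14, while the other 4 changes lay between -0.97 and -0.20 and Folr1 also fell. The mean of 9 microglia markers was 7.98 to 8.24 and 6.74 to 7.70, with 4 higher, and that of 6 fibroblast and mural cell markers 7.86 to 8.28 and 6.52 to 7.24, with 4 higher. Of 6 endothelial markers 3 rose, with means of 7.12 to 7.28 and 6.36 to 6.61, and of 6 border macrophage markers 2 rose, with means of 6.17 to 6.61 and 5.41 to 5.98. Of 6 astrocyte markers 2 rose, with overlapping means of 9.38 to 9.82 and 8.21 to 9.44, and of 4 Purkinje cell markers 0 passed (limma, 0 at an unadjusted p under 0.05). The part of these cells in the levels of the members was not tested.

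The probe sets outside the 67 were examined without a test. The 11 family genes at or below the level threshold had a median difference of 0.02, with 5 negative and a range from -0.67 to 0.74. A further 46 probe sets name a family gene together with another gene and hold 31 distinct sets of values. Of these, 18 had a lower and 13 a higher mean in the Bcl2l1-deleted tumours.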

How the data were processed

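Total RNA of 8 tumours was hybridised to Affymetrix arrays. The deposited values are log2 RMA expression values made by the authors with the gene expression workflow of Partek, per the labels; no version or genome build is given in the sources used here. Their number, 4 arrays a group, limits the precision.

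Of 41345 probe sets, 23521 carry 1 gene symbol, 1814 several and 16010 none in the platform annotation. Single-symbol probe sets gave 22180 genes, each by its probe set with the highest mean, and the 15526 above the 30th percentile of the mean (4.38) were tested. The fit was lmFit and eBayes of limma 3.58.1 under R 4.3.3 (two-sided, without covariates), with Benjamini-Hochberg adjustment over all genes tested. Each array is a separate animal, so p-values measure the spread between animals. On simulated data with 15526 genes the same steps recovered 72% of 100 changes of 1 log2 unit and 100% of 100 changes of 2, with 15 false calls. The simulated noise was normal, independent between genes and of equal spread on every array. The real arrays differ as a whole, control replicate 2 most, so these rates check the steps and do not measure recovery or false calls here.

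Lengths and hosts came from a RefSeq gene table (GRCm38.p6). The host was to lie on the same strand, but the table has no strand, so a host is the gene whose span holds the member. Promoter windows are RefSeq's of the same build.

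Genes were named by a rule: up to 12 members past the threshold by smallest p in each direction, or the 6 of smallest p where fewer than 6 passed, the 4 brightest of each class, the 3 nearest the level threshold on either side, up to 4 genes per pathway list, hosts and Bcl2l1. Snora7a, Snora16a, Scarna8, Snora73b, Snora2b, Snord118, Snord13, Snord22, Snord15a, Snord43, Snord83b, Snora61, Snord87, Rpph1, Rny1, Terc and Rn7sk fall outside it and were chosen after their values were seen. The members and lists were chosen with earlier results of these data known.

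Alternatives changed the level filter, the scaling, the background covariate, the variance model, array weights, the replicate block, an Xist covariate, the choice of probe set, and the arrays, each left out in turn. A joint setting, leaving out control replicate 2 and centring each array on its tested genes, was added after seeing the data.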

Additional observations from a re-analysis of the deposited data

Results flagged for a closer look

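In 3 of 106 groups of 4 arrays checked, 1 array stood apart from the other 3 by a gap above Dixon's critical value, which chance passes in about 1 of 20 groups. Snora15 stood at 6.87 on control replicate 3, with the other controls between 5.43 and 5.57. Snord17 stood at 7.27 on Bcl2l1-deleted replicate 3, with the other 3 between 6.86 and 6.90. Gemin2 stood at 3.97 on control replicate 2, with the other controls between 4.96 and 5.16. The causes were not tested.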

How the results depend on the processing

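The number of members that fell, 14 as reported, lay between 10 and 17 under the other filters, scalings, covariates and variance models, was 28 with array weights, and was 26 when control replicate 2 was left out and each array centred on its tested genes. Of all genes tested, 6.78% and 7.57% fell in these last settings, against 1.60% as reported. Under the other filters, scalings, covariates and variance models that share lay between 0.33% and 4.50%. Leaving out each array in turn gave 1 to 19 lower and 0 to 3 higher. Same-numbered arrays of the 2 groups did not deviate together (correlations of 0.04, 0.02, -0.13 and 0.05). This gave no sign that the numbers pair the samples, and so few values cannot exclude it. With the replicate block 14 members fell, 11 of them among those reported, and 508 genes were called in place of 1013. Centred on the genes tested, Scarna17 was at -0.10, Scarna2 at -0.17, Snora2b at -0.0045, Ncl at -0.082 and Kansl2 at -0.13. Scarna17 was at -0.021 without control replicate 2 as well. Quantile normalization gave -0.030 for Scarna2 and -0.013 for Kansl2. With the receptor covariate Snora44 was at 0.13, Snora73b at 0.14 and Snord37 at -0.29. Snord82 was at 0.10 with arrays centred on all probe sets, and lay between -0.23 and 0.14 as each array was left out, positive without Bcl2l1-deleted replicate 2 or 4 or control replicate 1. Scarna2 lay between -0.037 and 0.18 in the same way, negative without Bcl2l1-deleted replicate 1 or control replicate 3. These changes of sign passed no test, and the cause was not tested.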
